A study of Rattus norvegicus with 6 samples.

Results

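The genes described here were the 70 chromatin remodelers, acetyl readers and writers of the rat spinal cord, out of the 22050 genes listed by Ensembl identifier in the deposited table. A gene was taken when its symbol began with Chd, Smarca to Smarce, Arid, Brd, Hdac, Kmt2, Setd or Kat as the rule wrote them, or was *Ep300* or *Crebbp*, and when its counts over the 6 libraries summed to at least 60. Of 73 symbols that matched, *Arid3c* (6 counts in all), *Brd8dc* (1 count) and *Hdac1l* (0 counts) did not reach that sum. All 70 members also passed edgeR's filter on low counts, which left 14426 genes for testing. By name they fell into 10 Chd, 13 Smarc, 8 Arid, 6 Brd, 11 Hdac, 5 Kmt2 and 8 Setd genes, and 9 genes in the Kat group together with *Ep300* and *Crebbp*. *Brd2* was not analysed here.

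In a cell, DNA is wound around histones, and these genes encode much of the machinery that moves histones or marks them. Chd and Smarc ATPases use ATP to slide or evict nucleosomes, with some Arid proteins among the subunits that bring Smarc ATPases to DNA. Acetyltransferases (Kat, *Ep300*, *Crebbp*) write acetyl groups, bromodomain proteins (Brd) read them and deacetylases (Hdac) remove them. Many Kmt2 and Setd proteins add methyl groups to histones or to other proteins. Acetylation of histone H3 at lysine 27, written by *Ep300* and *Crebbp* and read by Brd proteins, marks active enhancers and the enhancer clusters called super-enhancers.

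RNA was taken from spinal cord tissue of SD rats with spared nerve injury (SNI-NP rats) and of sham-operated SD rats (sham rats). Each group had 3 libraries. Spared nerve injury is a surgery that cuts branches of the sciatic nerve, leaves the sural branch intact and leads to neuropathic pain. The comparison asked which RNAs differ in the cord of rats with this pain state, and the labels name no genetic change or drug for either group. The labels and the study's RNA-seq methods used here gave neither the days after surgery nor the segment of the cord, and whether a library came from 1 animal was not stated, so *P*-values measure the spread between these libraries only. The libraries held between 16670760 and 18151156 estimated counts, and the 70 members took between 0.335% and 0.384% of them. Markers of neurons and oligodendrocytes were present in every library, with 0 of their list members at 0 throughout. Markers of peripheral myelin had a higher sum than those of oligodendrocytes in every library. They summed to 61800 to 75000 CPM in the sham libraries and 71300 to 95200 CPM in the SNI-NP libraries. CPM stands for counts relative to the library total after TMM scaling. Those of oligodendrocytes summed to 29300 to 39600 CPM in the sham libraries and 28800 to 38500 CPM in the SNI-NP libraries. The levels below are those of the tissue as taken. All 8 markers of dorsal root ganglion neurons were also found, at a summed 666 to 1340 CPM in the sham libraries and 225, 1800 and 1280 CPM in SNI-NP 1, 2 and 3. In bulk tissue, fewer cells of a type and less RNA per cell cannot be told apart.

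Levels of the members per length were compared by FPKM, which divides a count by the length of the transcript and the total of the library. *Setd3*, which encodes a methyltransferase of actin, had the highest mean FPKM over the 6 libraries (66.5), with 69.0 ± 4.22 (SD, n = 3) in the sham rats and 64.0 ± 6.05 in the SNI-NP rats. *Hdac11*, a class IV deacetylase (mean 54.8), and *Smarcc2*, a core subunit of the neural SWI/SNF complex (mean 49.6), came next, and *Kmt2d* (46.8), *Kat7* (45) and *Chd4* (38.7) followed. The order among the top 3 was not fixed by these libraries, since *Hdac11* stood at 55.9 ± 14.5 and *Smarcc2* at 49.2 ± 5.10 in the sham rats. At the lower end stood *Smarca1* (mean 0.588), *Hdac9* (0.800) and *Arid3b* (1.59). Within families the range was wide, from 0.588 to 49.6 FPKM for Smarc, from 0.800 to 54.8 for Hdac and from 1.95 (*Chd7*) to 38.7 (*Chd4*) for Chd. The Brd genes were the most alike, with means between 9.74 (*Brd3*) and 25.1 (*Brd7*).

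**Figure D1:**
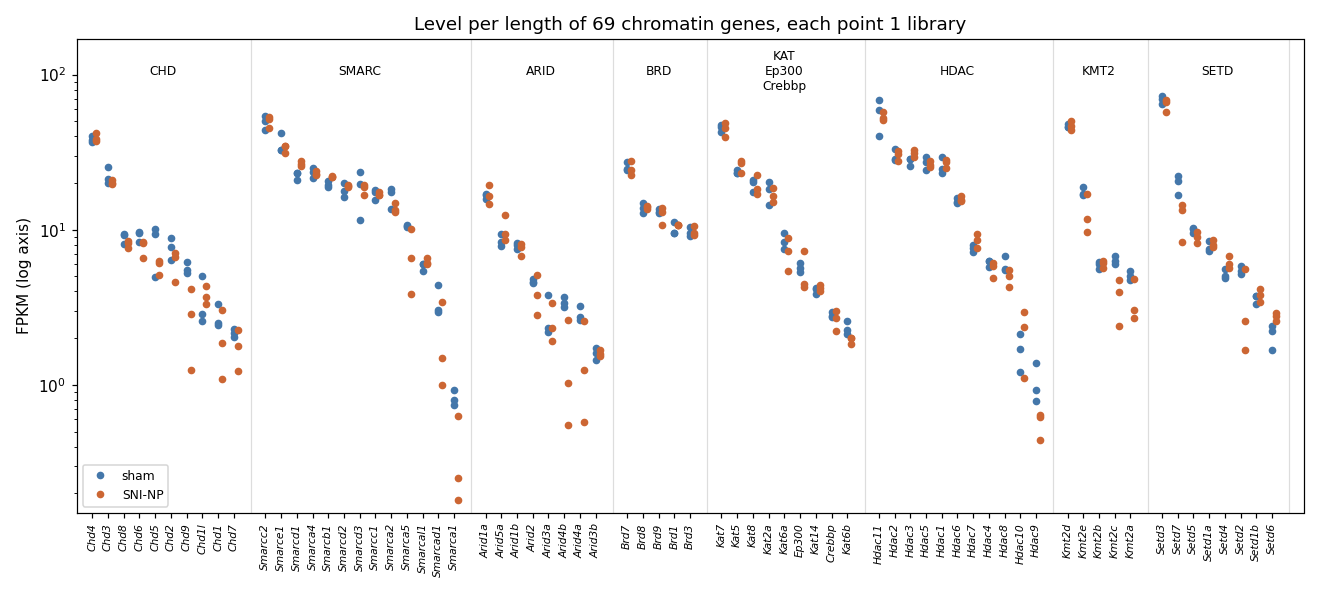
Level per length of 69 of the chromatin genes by family (y axis: FPKM, log axis; each point is 1 library, blue for sham and orange for SNI-NP). *Setd3* had the highest mean (66.5 FPKM) and *Smarca1* the lowest (0.588 FPKM), and the SNI-NP points of *Arid4a*, *Arid4b*, *Chd9*, *Setd2*, *Smarca1* and *Smarcad1* spread further downwards than their sham points.

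Across all members, the groups were close. The median log2 fold change (SNI-NP minus sham, from the edgeR fit) was 0.0088 over the 70 members, with 34 below and 36 above 0, beside a median of 0.0057 over all genes tested. After Benjamini-Hochberg adjustment of edgeR's quasi-likelihood test over all 14426 genes, 0 of the 70 members and 0% of the genes passed 0.05, and the lowest adjusted *P*-value of a member was 0.436. DESeq2 gave 210 genes at that threshold, 0 members among them, and a smallest member value of 0.169. At an unadjusted *P*-value under 0.05, 6 members (8.57%) were lower in SNI-NP rats, beside 5.94% of all genes tested. These were *Arid4b*, *Chd9*, *Hdac9*, *Kmt2c*, *Setd7* and *Smarca1*. At the same threshold 2 members (2.86%), *Smarcb1* and *Smarcd1*, were higher, beside 4.91% of all genes. DESeq2 gave 9 members in both directions, for which the share of all genes was not worked out, and edgeR 8. By edgeR, the share of members was thus near that of all genes in both directions. The 3 SNI-NP libraries lay below the 3 sham libraries for 7 members (10%), the 6 lower genes and *Kat6b*, beside 8.15% of all genes. They lay above them for 6 members (8.57%), *Hdac3*, *Setd4*, *Setd6*, *Smarcal1*, *Smarcb1* and *Smarcd1*, beside 10.4% of all genes. With 3 libraries against 3, an exact two-sided permutation test of 1 gene cannot go below 0.1.

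Transcript length was considered next, since 54 of the 70 members had a transcript longer than the median of all genes tested. The length behind each value, worked out from a gene's count, FPKM and library total, had a median of 3650 bases over the members and 2271 bases over all genes. *Kmt2a*, the H3K4 methyltransferase MLL1, was the longest (11531 bases), before *Chd6* (10498 bases) and *Crebbp* (10098 bases), and the shortest were *Kmt2c* (1402 bases), *Hdac3* (1497 bases) and *Kat8* (1507 bases). *Ep300*, a close relative of *Crebbp*, was listed at 2584 bases. These lengths follow from the deposited values. For *Kmt2c* and *Ep300* they are shorter than the full transcripts are known to be, so the correction below handled both as shorter genes. The lengths of the other members, *Kmt2d* (3567 bases) and *Chd9* (4438 bases) among them, were not checked against full transcripts. Where a listed length is too short, FPKM and the correction carry that error. The length of 10 members differed by over 5% between libraries, that of *Chd9* between 4403 and 5056 bases. Longer transcripts tended to be low in SNI-NP 2, in which the deviation of a gene from its mean over libraries had a Spearman correlation of -0.26 with length across the 14426 genes. The same correlation was 0.18 in sham 1 and lay between 0.01 and 0.08 in the other 4 libraries. Across genes, the log2 fold change had a Spearman correlation with length of -0.11 over all genes and of -0.36 over the 70 members. Genes are not independent replicates, and all of these values share the same 6 libraries.

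After each library's trend with length was removed by loess offsets, the correlation was -0.02 over all genes and -0.16 over the members. The correction moved single members by between -0.03 and 0.14 on the log2 scale, *Chd6* by the most (from -0.20 to -0.06). It turned the direction of 9 members, all with values near 0 (*Arid1b*, *Brd7*, *Chd3*, *Chd8*, *Crebbp*, *Kat7*, *Kat8*, *Kmt2d* and *Smarce1*, between -0.10 and 0.02 before it and between -0.02 and 0.09 after it). The same 6 members were lower at an unadjusted *P*-value under 0.05, beside 6.17% of all genes, and the same 2 members were higher, beside 5.7% of all genes. The median over the members was then 0.0109. Among *Arid4b*, *Chd9*, *Hdac9*, *Kmt2c*, *Setd7* and *Smarca1* the correction at the listed lengths moved no log2 fold change by more than 0.03. *Kmt2a* went from -0.48 to -0.35. The longest of 5 equal classes of genes, from 3803 to 24008 bases, held 33 of the members, and its median log2 fold change was -0.06 over all genes and -0.20 over the members as counted, and 0.00 and -0.06 after the correction.

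**Figure D2:**
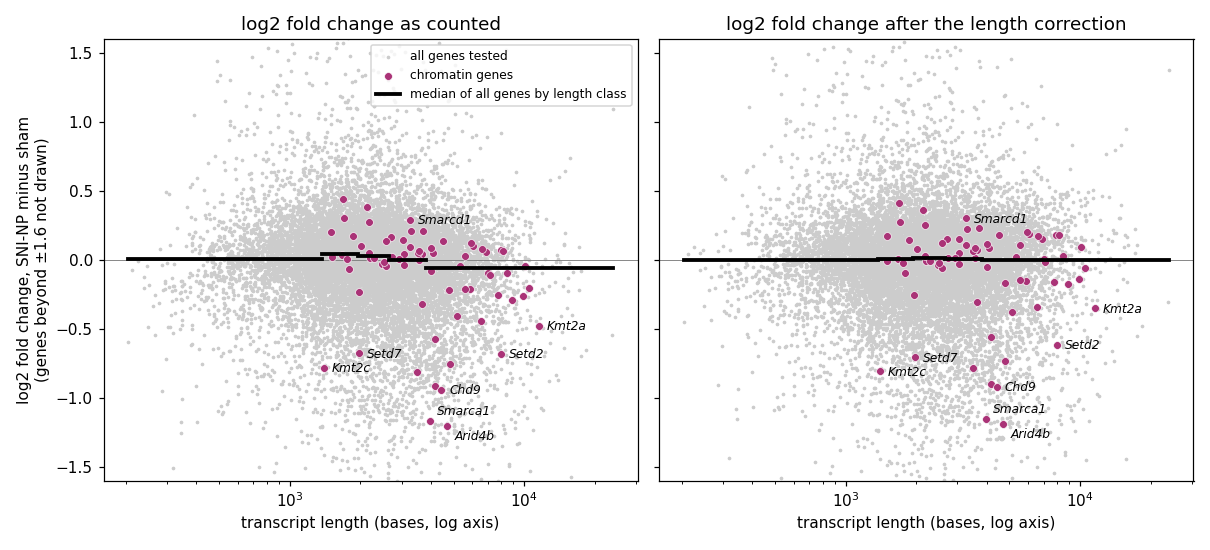
Log2 fold change of SNI-NP minus sham (y axis) against transcript length in bases (x axis, log axis), as counted on the left and after the length correction on the right. Grey points are all genes tested, purple points the 70 chromatin genes and black lines the median of all genes in each of 5 length classes. The black line of the longest class sits at -0.06 on the left and at 0.00 on the right, while *Arid4b*, *Smarca1* and *Chd9* stay near -1.

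The lower members are given by role, beginning with the remodelers. *Chd9* encodes a chromodomain helicase. It stood at 24.4, 26.3 and 23.2 CPM in sham 1, 2 and 3, and at 19.4, 6.22 and 12.9 CPM in SNI-NP 1, 2 and 3. All SNI-NP libraries lay below all sham libraries, SNI-NP 1 by a small distance and SNI-NP 2 by far. The log2 fold change was -0.94 ± 0.36 (SE; unadjusted *P* = 0.032 by edgeR's quasi-likelihood test, adjusted 0.440), and -0.92 ± 0.33 after the length correction. The study also measured *Chd9* by qPCR and did not name it among the genes whose change matched the sequencing.

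*Smarca1* encodes an ATPase of the ISWI type that spaces nucleosomes and is expressed in brain. It was low in all libraries, at 2.94, 3.04 and 3.67 CPM in the sham rats and 2.59, 0.722 and 0.985 CPM in SNI-NP 1, 2 and 3. SNI-NP 1 lay just under the sham libraries and the other 2 far under them. The log2 fold change was -1.17 ± 0.48 (SE; unadjusted *P* = 0.043 by edgeR's quasi-likelihood test). Its close relative *Smarca5*, the more widely expressed ISWI ATPase, had 44.9, 42.5 and 43.5 CPM in the sham rats and 44.1, 16.0 and 27.8 CPM in the SNI-NP rats. SNI-NP 1 lay within the sham range there, and the test was not passed (log2 fold change -0.58 ± 0.32, unadjusted *P* = 0.11 by edgeR).

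*Arid4b* and *Arid4a* encode paired DNA-binding subunits of the Sin3 deacetylase complex. *Arid4b* had 15.8, 16.8 and 14.4 CPM in the sham rats and 12.9, 2.5 and 5.04 CPM in SNI-NP 1, 2 and 3, with no overlap of the groups. At -1.20 ± 0.51 (SE; unadjusted *P* = 0.049 by edgeR, adjusted 0.458), its log2 fold change was the lowest of the 70. *Arid4a* had 11.6, 12.6 and 10.8 CPM in the sham rats and 10.9, 2.39 and 5.33 CPM in the SNI-NP rats. Here SNI-NP 1 lay inside the sham range, and the test was not passed (log2 fold change -0.91 ± 0.47, unadjusted *P* = 0.092 by edgeR). The other 6 Arid genes had log2 fold changes between -0.21 (*Arid2*) and 0.27 (*Arid5a*). Among these, the SWI/SNF subunits *Arid1a* (0.07) and *Arid1b* (-0.04) were near 0.

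Among the methyltransferases, *Setd7*, which adds a single methyl group to H3K4 and to several non-histone proteins, had the smallest *P*-value of the members. Its values were 40.9, 42.3 and 32.9 CPM in the sham rats and 27.6, 16.4 and 28.7 CPM in the SNI-NP rats, with all SNI-NP libraries lower and SNI-NP 2 the lowest. The log2 fold change was -0.68 ± 0.22 (SE; unadjusted *P* = 0.018 by edgeR, adjusted 0.436). *Kmt2c* (MLL3), which methylates H3K4 at enhancers, had 9.67, 8.84 and 8.56 CPM in the sham rats and 6.90, 3.28 and 5.56 CPM in the SNI-NP rats. Its groups did not overlap either, and the log2 fold change was -0.78 ± 0.28 (SE; unadjusted *P* = 0.024 by edgeR).

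*Kmt2d* (MLL4), which shares the enhancer role of *Kmt2c*, stood at 165 ± 2.42 CPM (SD, n = 3) in the sham rats and 165 ± 18.1 CPM in the SNI-NP rats, and its log2 fold change was -0.00. *Kmt2a* had 54.8, 59.9 and 57.9 CPM in the sham rats and 58.0, 30.7 and 35.4 CPM in the SNI-NP rats. SNI-NP 1 was at the sham level and the other 2 below it, and the log2 fold change was -0.48 ± 0.23 (SE; unadjusted *P* = 0.073 by edgeR). *Setd2*, the main writer of H3K36 trimethylation, had the same shape, at 41.1, 44.6 and 43.2 CPM in the sham rats and 46.5, 13.3 and 20.8 CPM in the SNI-NP rats. SNI-NP 1 was the highest of the 6 libraries for this gene, and the test was not passed (log2 fold change -0.68 ± 0.40, unadjusted *P* = 0.14 by edgeR).

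*Hdac9*, a class IIa deacetylase that binds the transcription factor MEF2, was the single lower member of its family and had another order of libraries. It stood at 4.86, 2.65 and 3.20 CPM in the sham rats and at 1.61, 2.22 and 2.26 CPM in SNI-NP 1, 2 and 3. SNI-NP 1 was the lowest library here, and sham 1 stood apart on the high side. The log2 fold change was -0.81 ± 0.32 (SE; unadjusted *P* = 0.036 by edgeR). The other class IIa genes, *Hdac4* (-0.08), *Hdac5* (0.01) and *Hdac7* (0.21), did not pass the test, and neither did *Hdac1* (0.10) and *Hdac2* (0.05), the deacetylases of the NuRD and Sin3 complexes.

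Both higher members were core subunits of the SWI/SNF complex. *Smarcd1* (BAF60A) had 75.4, 65.6 and 76.0 CPM in the sham rats and 95.0, 82.9 and 87.5 CPM in the SNI-NP rats, where every value exceeded every sham value. The log2 fold change was 0.29 ± 0.11 (SE; unadjusted *P* = 0.027 by edgeR, adjusted 0.436). *Smarcb1* (SNF5) had 71.9, 73.9 and 69.5 CPM in the sham rats and 85.0, 81.6 and 81.8 CPM in the SNI-NP rats, again without overlap, and a log2 fold change of 0.21 ± 0.09 (SE; unadjusted *P* = 0.046 by edgeR). In contrast to the lower genes other than *Hdac9*, the SNI-NP libraries were close to each other for both. The remaining SWI/SNF members of the Smarc family, which include the alternative ATPases *Smarca4* (0.03) and *Smarca2* (-0.22), and *Smarcc1* (0.05), *Smarcc2* (0.07), *Smarcd2* (0.13), *Smarcd3* (0.04) and *Smarce1* (0.01), did not pass the test.

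Among further members, 4 lay above the sham libraries in all SNI-NP libraries without passing the test. *Hdac3*, the deacetylase of the NCoR complex, had 43.2, 41.0 and 38.6 CPM in the sham rats and 45.8, 46.7 and 48.9 CPM in the SNI-NP rats. Every SNI-NP library was above every sham library, and the log2 fold change was 0.20 ± 0.10 (SE; unadjusted *P* = 0.071 by edgeR). *Setd6*, which methylates the NF-kB subunit RelA, was at 3.48 ± 0.574 CPM (SD, n = 3) in the sham rats and 4.73 ± 0.394 CPM in the SNI-NP rats (log2 fold change 0.44, unadjusted *P* = 0.083 by edgeR). *Setd4* was at 8.64 ± 0.781 and 10.7 ± 1.26 CPM (log2 fold change 0.31, unadjusted *P* = 0.11 by edgeR). The groups of *Setd4* and *Setd6* did not overlap, with SNI-NP 1 the highest library for both. *Smarcal1*, which rewinds DNA at stalled replication forks, was at 17.4 ± 0.928 CPM (SD, n = 3) in the sham rats and 19.2 ± 0.90 CPM in the SNI-NP rats, parted by a very small distance (log2 fold change 0.14, unadjusted *P* = 0.26 by edgeR).

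**Figure D3:**
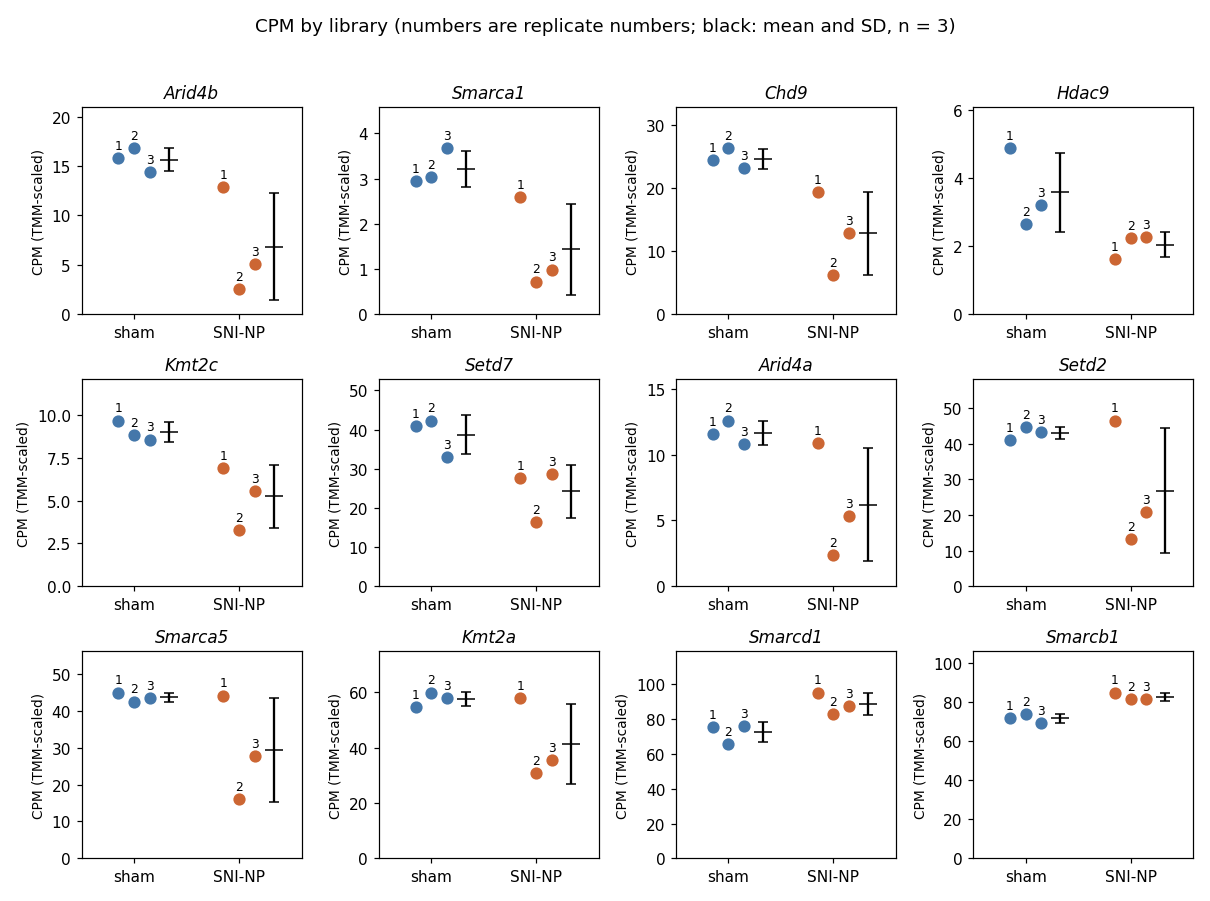
Level in each library of 12 members (y axis: TMM-scaled CPM from 0; blue points sham, orange points SNI-NP, with the replicate number beside each point; black lines give the mean and SD, n = 3). For *Arid4b*, *Smarca1*, *Chd9*, *Arid4a*, *Setd2*, *Smarca5* and *Kmt2a*, SNI-NP 2 is the lowest point and SNI-NP 3 the next, while SNI-NP 1 lies near the sham points. For *Smarcd1* and *Smarcb1* all SNI-NP points lie above the sham points.

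The calls of single genes rested on few libraries. *Setd7* kept an unadjusted *P*-value under 0.05 by edgeR under the removal of any single library, except without sham 2 (0.053), and *Kmt2c* except without sham 1 (0.056). *Chd9* lost it without sham 1, sham 2 or SNI-NP 3 (0.054, 0.071 and 0.064 by edgeR), and *Smarcd1* without sham 2, SNI-NP 1 or SNI-NP 3 (0.056, 0.085 and 0.068 by edgeR). *Arid4b* and *Smarca1* kept it without SNI-NP 1 alone, and *Hdac9* and *Smarcb1* without sham 2 alone. In all, leaving out sham 1 left 1 lower member and sham 3 left 3, while SNI-NP 3 left 2. Without sham 2 the lower members were 4, *Hdac9*, *Kmt2c*, *Chd5* (log2 fold change -0.71, unadjusted *P* = 0.0013 by edgeR) and *Smarca2* (-0.35, unadjusted *P* = 0.013 by edgeR), of which the last 2 did not pass with all libraries. The number of higher members was 1 without sham 1 or sham 3, 2 without sham 2 (*Smarcb1* and *Chd1l*) and 0 without SNI-NP 1 or SNI-NP 3. The direction was the same in each of these fits for all 8 genes. The share of all genes was not worked out for the fits without a sham library or without SNI-NP 3. Their counts therefore do not compare the members with other genes.

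The SNI-NP means of *Crebbp*, *Ep300* and the reader *Brd3* were near their sham means. *Crebbp* had 27.8, 26.9 and 29.5 CPM in the sham rats and 28.5, 22.4 and 30.6 CPM in the SNI-NP rats, and *Ep300* had 14.6, 15.1 and 13.8 CPM in the sham rats and 19.6, 11 and 11.7 CPM in the SNI-NP rats. The groups overlapped for both, and for *Ep300* the SNI-NP libraries lay on both sides of the sham libraries. The log2 fold changes were -0.05 ± 0.14 for *Crebbp* and -0.04 ± 0.23 for *Ep300* (SE; unadjusted *P* = 0.76 and 0.86 by edgeR). After the length correction they were 0.09 for *Crebbp*, the opposite direction, and -0.06 for *Ep300*.

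*Brd3*, a reader of acetylated histones, had 29.3 ± 1.07 CPM (SD, n = 3) in the sham rats and 30.3 ± 2.97 CPM in the SNI-NP rats, and a log2 fold change of 0.05 ± 0.12. *Brd1*, a scaffold of acetyltransferase complexes, had the smallest *P*-value of its family (log2 fold change 0.14 ± 0.10, unadjusted *P* = 0.21 by edgeR), and 0 of the 6 Brd genes passed the test. The range of the family, from -0.03 (*Brd9*) to 0.14 (*Brd1*), was the narrowest of the 8.

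Of the 9 acetyltransferase genes, 0 passed the test, at log2 fold changes between -0.25 (*Kat6a*) and 0.17 (*Kat5*). *Kat5* (TIP60), which acetylates H4 and the DNA damage kinase ATM, was at 43.5 ± 1.90 CPM (SD, n = 3) in the sham rats and 49.0 ± 3.19 CPM in the SNI-NP rats (unadjusted *P* = 0.13 by edgeR). *Kat8* (MOF), the writer of H4K16 acetylation, was at 29.0 ± 2.41 and 29.5 ± 3.51 CPM. *Kat6b* (MORF) was at 12.5, 13.8 and 11.8 CPM in the sham rats and 11.7, 10.1 and 11.2 CPM in the SNI-NP rats, so that its groups parted by a very small distance.

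The family medians were lowest for Kmt2 (-0.32, and -0.31 after the length correction) and Chd (-0.23, and -0.10 after the correction), and the other 6 lay between -0.04 (Kat) and 0.05 (Hdac). In the Chd family the NuRD helicases *Chd4* (248 ± 5.62 and 262 ± 18.7 CPM), *Chd3* (153 ± 21.6 and 143 ± 3.15 CPM) and the neuronal *Chd5* (52.8 ± 18.8 and 38.9 ± 4.58 CPM) did not pass the test, and sham 2 was at 31.3 CPM for *Chd5*, below the SNI-NP libraries. *Chd6* was at 95.1 ± 6.50 and 82.5 ± 12.5 CPM (SD, n = 3). *Chd8*, a regulator of neurodevelopment, had a log2 fold change of -0.09, and of 0.03 after the length correction. *Chd7* had one of -0.26, and of -0.14 after the correction.

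The lower values of the members were concentrated in SNI-NP 2 and SNI-NP 3. In SNI-NP 2, 10 members (14.3%) were under 50% of the sham mean CPM, beside 8.15% of all genes tested. They were *Arid4a*, *Arid4b*, *Chd1*, *Chd9*, *Kmt2c*, *Setd2*, *Setd7*, *Smarca1*, *Smarca5* and *Smarcad1*. In SNI-NP 3, 5 members (7.14%) were under that level, *Arid4a*, *Arid4b*, *Setd2*, *Smarca1* and *Smarcad1*, beside 5.05% of all genes. In SNI-NP 1 it was *Hdac9* alone (1.43%), beside 4.3% of all genes. After the length correction the same 10 members were under 50% in SNI-NP 2, beside 7.4% of all genes. In that longest class, 8 of the 33 members were under 50% in SNI-NP 2, and 15.6% of all genes there were. Sham libraries, each set against the mean of the other 2, had 0, 1 (*Chd5* in sham 2) and 0 members under 50%.

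**Figure D4:**
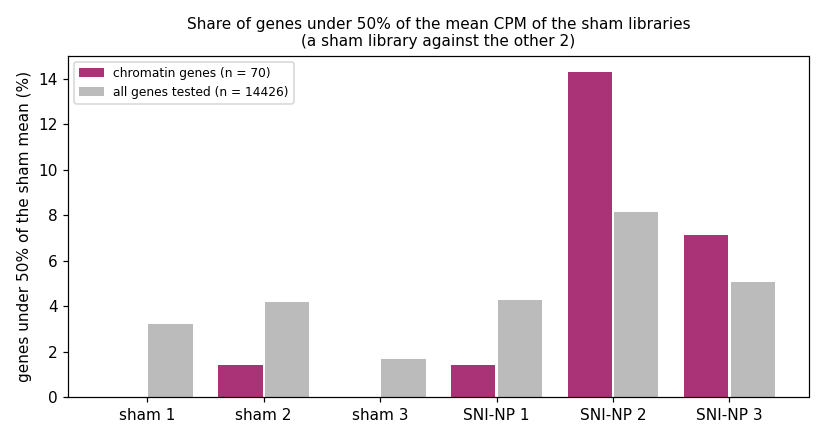
Share of genes under 50% of the sham mean CPM in each library (y axis: percent of genes, purple bars the 70 chromatin genes, grey bars all genes tested; each sham library is set against the other 2). The purple bar is above the grey bar in SNI-NP 2 (14.3% and 8.15%) and SNI-NP 3 (7.14% and 5.05%) and below it in the other 4 libraries.

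Relative to the sham mean, *Arid4b* was at 15.9% in SNI-NP 2 and 32.2% in SNI-NP 3, and *Arid4a* at 20.5% and 45.7%. *Smarca1* was at 22.4% and 30.6%, and *Smarcad1*, a remodeler that acts at heterochromatin and DNA breaks, at 29.3% and 44.1%. *Setd2* was at 30.9% and 48.3%, *Smarca5* at 36.7% and 63.6%, and *Chd1*, a helicase that binds trimethylated H3K4 and acts in elongation, at 39.8% and 69.0%. Each of these genes was lower in SNI-NP 2 than in SNI-NP 3, and in SNI-NP 1 they ranged from 80.5% (*Smarca1*) to 117% (*Chd1*). SNI-NP 1 was thus nearer to the sham mean than both for all of these genes. *Arid4a*, *Setd2*, *Smarca5*, *Smarcad1*, *Chd1* and *Kat6b* were chosen for description after their values were seen.

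The same order of libraries appeared in the first principal component of the 70 members' log2 CPM, which held 77.2% of their variance over the 6 libraries, beside 35.1% for all genes tested. The share for genes of like level or length was not worked out, so these shares do not compare like with like. In the members' component, SNI-NP 2 had a loading of -0.77 and SNI-NP 3 one of -0.32. There SNI-NP 1 (0.23) stood with sham 1, 2 and 3 (0.29, 0.32 and 0.26). The component of all genes tested had the same order, with -0.68, -0.42 and 0.25 for SNI-NP 2, 3 and 1. The order was thus not particular to the members. After the length correction the members' component held 74.9%, with -0.76, -0.34 and 0.20 for SNI-NP 2, 3 and 1. Several marker sums also differed between these libraries. Those of dorsal root ganglion neurons were at 225 CPM in SNI-NP 1, and at 1800 and 1280 CPM in SNI-NP 2 and 3 (sham 666 to 1340 CPM). Those of neurons were at 641, 1190 and 985 CPM in SNI-NP 1, 2 and 3 (sham 882 to 1220 CPM), and those of red blood cells at 2620, 1310 and 1090 CPM (sham 494 to 1200 CPM). SNI-NP 1 thus lay outside the sham range for all 3 of these lists, and SNI-NP 2 for those of ganglion neurons and red blood cells. Markers of astrocytes were at 1250, 919 and 884 CPM (sham 736 to 1790 CPM), those of oligodendrocytes at 38500, 28800 and 31700 CPM (sham 29300 to 39600 CPM), and those of skeletal muscle at 126, 8.22 and 314 CPM (sham 9.37 to 60.7 CPM). The mitochondrially encoded genes took 4.42% of the counts in SNI-NP 1 and 3.95% and 3.89% in SNI-NP 2 and 3, against 4.08% to 5.21% in the sham libraries. Their part in the low values of the members was not tested.

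**Figure D5:**
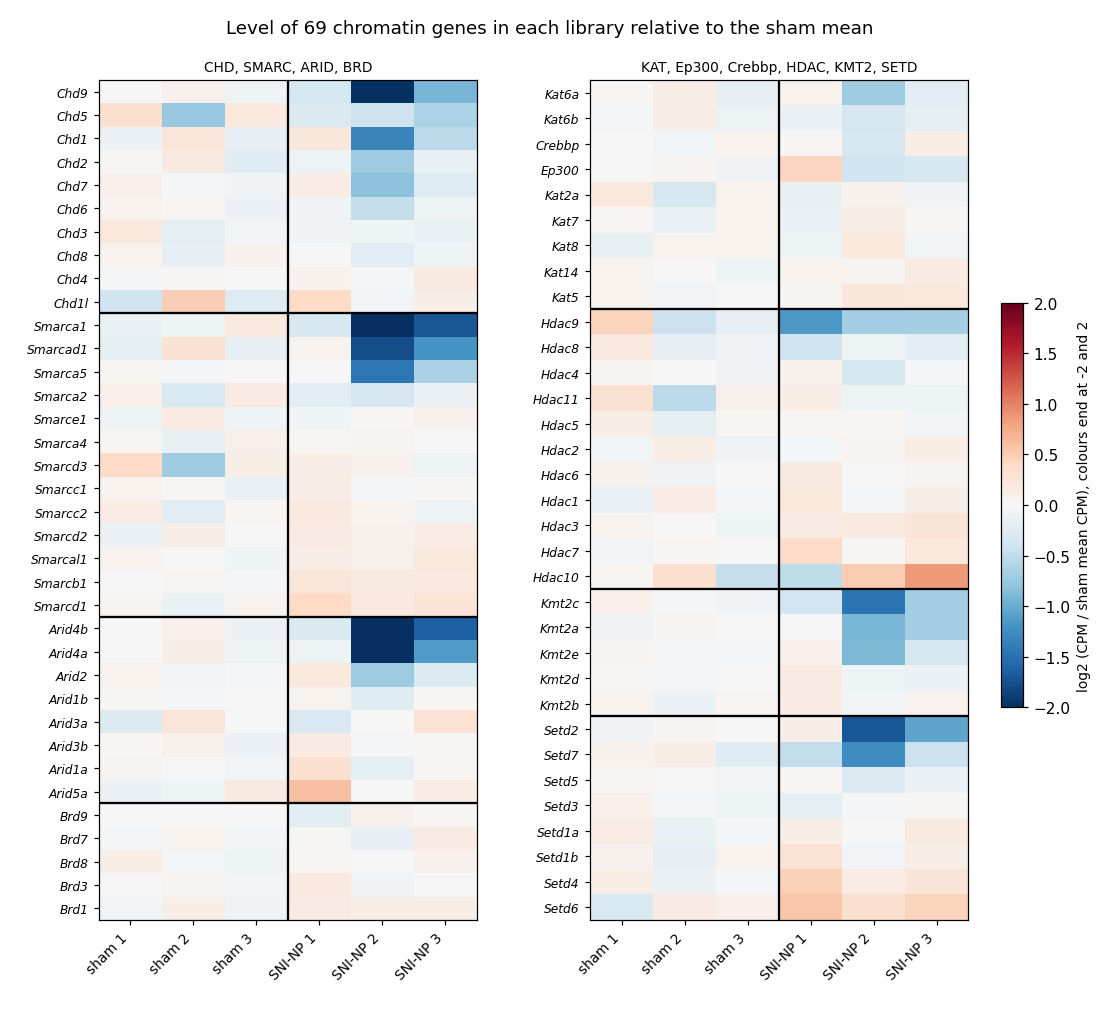
Level of 69 of the chromatin genes in each library relative to the sham mean (colour: log2 ratio of CPM, blue lower and red higher, ends at -2 and 2; rows are genes by family, columns the 6 libraries). The darkest blue cells lie in SNI-NP 2, with *Arid4b* at 15.9% of the sham mean, and recur in paler form in SNI-NP 3, while SNI-NP 1 is near the sham libraries except for genes such as *Hdac9*.

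Without SNI-NP 1, 15 members (21.4%) were lower at an unadjusted *P*-value under 0.05 by edgeR's quasi-likelihood test, beside 9.52% of all genes, and 0 members were higher, beside 3.56% of all genes. Of these, *Arid4b*, *Kmt2a* and *Setd2* had an adjusted *P*-value under 0.05 (0.032, 0.035 and 0.033), beside 1.52% of all genes. The log2 fold changes were then -2.06 for *Arid4b*, -1.91 for *Smarca1*, -1.6 for *Arid4a*, -1.45 for *Smarcad1*, -1.36 for *Chd9* and -1.34 for *Setd2*. *Arid2*, *Chd1*, *Chd7*, *Kat6a*, *Kmt2e*, *Smarca5*, *Kmt2c* and *Setd7* made up the rest. With the length correction 14 members (20%) were lower, *Ep300* among them and *Chd7* and *Kat6a* no longer, beside 9.21% of all genes. *Smarcd1* alone was then higher, beside 4.73% of all genes. Without SNI-NP 2, *Chd9* (log2 fold change -0.61), *Kmt2c* (-0.53) and *Setd7* (-0.46) were lower, beside 4.33% of all genes, and *Smarcd1* (0.34) was higher, beside 5.17% of all genes. The fits without a library leave 2 SNI-NP libraries, so they describe those libraries and not the group. For *Arid4b*, *Kmt2a* and *Setd2*, SNI-NP 1 was the SNI-NP library nearest to the sham libraries. Their smaller *P*-values without it follow from values already seen and are no separate evidence. With all libraries, the lowest adjusted *P*-value of a member was 0.436 by edgeR's quasi-likelihood test.

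Promoter sequences were available for 57 of the 70 members, as windows of 300 bases (250 before the start and 50 after it) from RefSeq on build GRCr8. *Chd2*, *Chd7*, *Chd8*, *Hdac11*, *Kat2a*, *Kat6a*, *Kmt2a*, *Kmt2d*, *Kmt2e*, *Setd5*, *Setd7* and *Smarcc2* were among those without an entry. Shown are *Arid4a* (chr6:95258179-95258478, plus strand), *Arid4b* (chr17:55958333-55958632, minus strand) and *Chd9* (chr19:32337439-32337738, minus strand), which had a like order of libraries, and *Smarcd1* (chr7:132708377-132708676, plus strand), which was higher in the SNI-NP rats. Each is written along its own gene, and capitals mark the CCAAT boxes (CCAAT), the GC boxes (GGGCGG) and the ETS cores (CCGGAA), each found on either strand.
Arid4a: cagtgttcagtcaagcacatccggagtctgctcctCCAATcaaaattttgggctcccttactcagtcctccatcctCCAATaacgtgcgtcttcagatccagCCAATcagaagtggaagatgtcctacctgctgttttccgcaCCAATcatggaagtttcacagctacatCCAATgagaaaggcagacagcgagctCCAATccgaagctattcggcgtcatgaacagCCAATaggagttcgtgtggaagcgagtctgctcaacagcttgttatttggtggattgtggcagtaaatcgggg
Arid4b: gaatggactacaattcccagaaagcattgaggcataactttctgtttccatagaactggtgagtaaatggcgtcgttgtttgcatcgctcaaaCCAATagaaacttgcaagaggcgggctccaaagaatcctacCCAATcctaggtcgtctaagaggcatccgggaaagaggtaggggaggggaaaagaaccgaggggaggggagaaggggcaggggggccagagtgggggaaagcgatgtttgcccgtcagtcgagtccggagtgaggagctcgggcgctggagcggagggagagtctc
Chd9: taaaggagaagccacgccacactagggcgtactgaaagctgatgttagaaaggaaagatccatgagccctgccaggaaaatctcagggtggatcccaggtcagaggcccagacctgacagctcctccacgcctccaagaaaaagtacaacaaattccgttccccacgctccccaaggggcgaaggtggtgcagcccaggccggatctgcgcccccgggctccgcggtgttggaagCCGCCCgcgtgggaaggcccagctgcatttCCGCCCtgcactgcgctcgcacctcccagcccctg
Smarcd1: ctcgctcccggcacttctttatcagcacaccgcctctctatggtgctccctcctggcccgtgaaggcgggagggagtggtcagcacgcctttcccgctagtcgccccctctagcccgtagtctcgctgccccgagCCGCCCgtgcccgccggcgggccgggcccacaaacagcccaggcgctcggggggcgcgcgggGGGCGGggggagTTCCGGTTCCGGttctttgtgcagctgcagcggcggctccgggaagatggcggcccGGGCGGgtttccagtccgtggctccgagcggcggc

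The window of *Arid4a* held 7 CCAAT boxes and that of *Arid4b* 2, and neither held the GC box GGGCGG. The window of *Chd9* held 2 GC boxes and no CCAAT box, and that of *Smarcd1* held 3 GC boxes and 2 copies of the ETS core CCGGAA. The 2 paralogs thus shared the CCAAT motif, and *Chd9*, which had nearly the same order of libraries, did not have it. Of the 57 member windows 35.1% held CCAAT, beside 37.2% of the windows of the 10891 genes tested that had an entry. GGGCGG was in 71.9% and 61.6%, CCGGAA in 28.1% and 26%, the TATA box TATAAA in 1.75% and 6.82%, the E-box CACGTG in 3.51% and 9.09%, and the cAMP response element TGACGTCA in 0% and 3.02%. The median GC content of the windows was 64.7% for the members and 61% for all genes, and its Spearman correlation with the log2 fold change across genes was -0.02 in both. A match is a run of letters in this window and not a measured binding site.

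Among the genes whose pattern over the 6 libraries was most like that of *Chd9* were *Zfp329*, *Zbtb41*, *Giot1* and *Nufip2*, with a Pearson correlation of log2 CPM of between 0.996 and 0.998 (n = 6 libraries). *Zfp329* was at 65.8%, 7.37% and 34.6% of the sham mean in SNI-NP 1, 2 and 3. Among the other 69 members, 17 (24.6%) had a correlation above 0.9 with *Chd9*, beside 866 of the other 14425 genes (6%). These correlations were taken without the length correction. The share was not worked out for genes of like length or level, so it does not set the members against like genes. *Arid4a* (0.991), *Kmt2c* (0.990), *Arid4b* (0.986) and *Smarca5* (0.979) were the most alike, and *Kat5* (-0.88) went the other way. All of these correlations rest on the same 6 libraries, with SNI-NP 2 farthest from the rest, and are given as a description.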

How the data were processed

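Spinal cord RNA of sham and SNI-NP rats, in 3 libraries per group, was sequenced on an Illumina platform. The authors mapped the reads to the genome they call Rat6 and kept unique sequences. The submitters' processing notes name FastQC, STAR and HTSeq, without versions. How strand was used is not given in the sources used here. For 22050 genes the authors deposited an estimated count, not normalized, and an FPKM value. A total of 4 members (*Arid4b*, *Setd3*, *Smarca5* and *Smarce1*) had counts that were not whole, and their values may depend on how shared reads were divided.

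Estimated counts were rounded and tested with edgeR 4.0.16 (filterByExpr, TMM, quasi-likelihood test, Benjamini-Hochberg adjustment over 14426 genes) in R 4.3.3, with condition as the single term. The study's methods name DESeq2 with FPKM, and DESeq2 1.42.0 and limma 3.58.1 on log2(FPKM + 0.1) and log2(FPKM + 1) were run as alternatives. Transcript length was the median over libraries of the value that links a count to its FPKM, where the FPKM was at least 0.2. For the length correction, each library's deviation of log2 CPM (prior count 2) was smoothed by loess on log2 length (span 0.5) and added to the offsets. Scripts were tested on simulated data.

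Library totals ran from 16670760 to 18151156 estimated counts. The replicate numbers were not used to pair the libraries in the main fit. Members and gene lists were chosen with earlier results of these data known. The rule for named genes took *Chd9*, the writers and readers of H3K27 acetylation, the 5 smallest *P*-values in each direction, the 3 highest and 3 lowest in FPKM, the 3 longest and 3 shortest, the smallest *P*-value of each family and the genes most like *Chd9*. A member and another gene that the rule named are counted but not reported here by name. The ChIP-seq of the study was not used here.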

Additional observations from a re-analysis of the deposited data

How the results depend on the processing

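The count of lower members (6) stayed between 5 and 9 under DESeq2, other scaling factors, both other filters, limma on FPKM and the replicate block, and that of higher members (2) was 1 without a filter, under RLE or upper-quartile scaling, under DESeq2 and under limma on log2(FPKM + 0.1) and log2(FPKM + 1). Leaving out each library in turn gave 1 to 15 lower and 0 to 2 higher members, and 1 to 14 and 1 to 4 after the length correction. The 15 came without SNI-NP 1, while 1 came without sham 1, 3 without sham 3 or without SNI-NP 2, and 2 without SNI-NP 3. A straight line on log2 length in place of loess gave 5 higher members and a median of 0.0654. The cause was not tested. Beyond the shares given earlier, those of all genes were not worked out under these settings. The counts in this section therefore do not compare the members with other genes.

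The same-numbered libraries correlated at 0.21, -0.14 and 0.05 in their deviations from the group means, and unlike-numbered ones at -0.24 to 0.22. The labels name no pairs, and these values cannot settle whether the numbers mark any. With the number as a replicate block, 7 members were lower and 1 higher, with and without the length offsets.

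Directions reversed for genes near 0 only. *Kat8* turned to -0.022, -0.0208 and -0.0172 under limma on log2(FPKM + 0.1), log2(FPKM + 1) and the ratio of mean FPKM, and after the length correction to 0.0006 with no filter and 0.0377 with a straight line. *Hdac11* turned to 0.0197 under the block, 0.0094 under the block with length offsets and 0.0424 with a straight line, and *Ep300* to 0.0095 with a straight line. Leaving out single libraries gave the following ranges, as counted and length-corrected: -0.2197 to 0.1555 and -0.2133 to 0.1521 for *Hdac11*, -0.0774 to 0.0851 and -0.0884 to 0.0468 for *Kat8*, -0.3557 to 0.1070 and -0.3587 to 0.0891 for *Ep300*, -0.1757 to 0.0762 and -0.0139 to 0.1467 for *Crebbp*, and -0.0364 to 0.0988 and -0.0190 to 0.0974 for *Brd3*. They were -0.0272 to 0.1300 for *Smarcc2* and -0.0332 to 0.0980 for *Arid3b*, as counted. Depth limited the least abundant member most: *Smarca1* rested on 13 counts in SNI-NP 2 and 17 in SNI-NP 3.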

Other observations

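The partners of these enzymes were looked at in lists of 161 further chromatin genes, of which 150 were tested. Of these, 2 (1.33%) were lower and 2 (1.33%) higher at an unadjusted *P*-value under 0.05 by edgeR's quasi-likelihood test, beside 5.94% and 4.91% of all genes tested. The median log2 fold change was -0.04, and 21 (14%) were under 50% of the sham mean in SNI-NP 2. That share was 8.15% of all genes and 15.6% of the longest length class. *Pbrm1*, the bromodomain subunit that defines the PBAF form of SWI/SNF, had 28.1, 31 and 27.2 CPM in the sham rats and 22.6, 7.5 and 12 CPM in SNI-NP 1, 2 and 3, with no overlap and a log2 fold change of -1.04 ± 0.36 (SE; unadjusted *P* = 0.022 by edgeR). *Suz12*, a core subunit of the Polycomb repressive complex that methylates H3K27, had 8.10, 7.15 and 6.58 CPM in the sham rats and 5.52, 2.39 and 4.29 CPM in the SNI-NP rats (log2 fold change -0.84 ± 0.31, unadjusted *P* = 0.029 by edgeR). Both had the order of SNI-NP libraries seen in *Arid4b* and *Chd9*.

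The 2 higher partners were corepressor genes. *Sin3b*, a scaffold of the Sin3 deacetylase complex, had 43.3, 46.8 and 46.7 CPM in the sham rats and 56.7, 61.0 and 50.8 CPM in the SNI-NP rats (log2 fold change 0.30 ± 0.11, unadjusted *P* = 0.024 by edgeR). *Gatad2a*, a subunit of NuRD, had 77.1, 73.6 and 83.9 CPM in the sham rats and 101, 88.8 and 90.9 CPM in the SNI-NP rats (log2 fold change 0.26 ± 0.10, unadjusted *P* = 0.036 by edgeR). Of the 27 genes tested that act with acetyl readers in transcription, 0 passed in either direction. In SNI-NP 2, 9 of them (33.3%) were under 50% of the sham mean, beside the same 8.15% of all genes. In the longest class of genes, from 3803 bases, that share was 15.6%. The 9 ran from 1993 bases (*Ccnt1*) to 9352 bases (*Brwd1*), and *Brwd3* was near the floor, at 0.167 CPM in SNI-NP 2. Their share was not set against genes of like length. With the length correction 5 of the 150 partners were lower and 5 higher, beside 6.17% and 5.7% of all genes.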
